A study of Mus musculus with 11 samples.

Results

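Hepcidin and the proteins that take up, sense, store, export and release iron were followed in hepatocytes by 9 genes: Hamp, Hamp2, Tfr2, Hfe, Tfrc, Fth1, Ftl1, Slc40a1 and Hmox1. They were fixed as a list of names with no cutoff on their values, but earlier results of these data were known at that time. Each was found by its Ensembl identifier among the 54232 genes of every count file. All 9 passed the filter on low counts, which kept 13303 genes for testing. The level of each gene was compared over 4 groups of mice, defined by genotype and diet.

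The study asked how hepatocytes without the transcription factor XBP1, a regulator of the unfolded protein response, respond to a steatohepatitis diet. RNA was sequenced from isolated hepatocytes of adult male C57BL/6 mice, either liver-specific Xbp1 knockout animals (Xbp1 LKO) or floxed controls (Xbp1 fl/fl). For up to 6 weeks the mice were fed either regular chow or a Western diet combined with sugars in the drinking water, called the high fat sugar (HFS) diet. The groups are called fl/fl chow (3 libraries), LKO chow (2), fl/fl HFS (3) and LKO HFS (3) here, 11 libraries in all. Both genotypes carry the floxed allele, and the knockout mice in addition carry Cre under the albumin promoter, so the gene is lost in hepatocytes and their albumin-expressing precursors. Each HFS library is a pool of 2 mice. Library totals ranged from 19191032 to 23888401 counts. Levels are given as CPM, the count in a library scaled to a fixed total with edgeR's TMM factors, and differences as log2 fold changes with a standard error (SE) and a Benjamini-Hochberg adjusted p over all genes tested.

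Hepcidin is a small peptide hormone that hepatocytes secrete when iron is plentiful or during inflammation. It binds ferroportin, the cellular iron exporter, on gut epithelium, macrophages and hepatocytes, and causes its removal from the membrane, so less iron enters plasma. Its gene is switched on mainly by bone morphogenetic protein (BMP) signals acting through SMAD proteins, with hemojuvelin as co-receptor and HFE and transferrin receptor 2 as sensors of iron-loaded transferrin, and by interleukin 6 acting through STAT3. Iron inside the cell acts by another route: iron regulatory proteins bind a stem-loop, the iron responsive element, in the messages for ferritin, ferroportin and transferrin receptor 1.

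The mouse has a pair of hepcidin genes, and their upstream sequences are shown because the genes are nearly alike in sequence and far apart in level. In GRCm38.p6, the Hamp stretch is chr7:30944033-30944279 and the Hamp2 stretch is chr7:30924182-30924431, both on the minus strand and both from RefSeq. The Hamp stretch is upstream of the annotated first exon; the Hamp2 stretch lies upstream of its main first exon and within an intron of a longer Hamp2 transcript. Capitals mark GGCGCC, the core letters of the BMP response element described for the hepcidin promoter, and TTCNNNGAA, the letters of a STAT binding site; both motifs read the same on either strand and do not overlap here.
Hamp: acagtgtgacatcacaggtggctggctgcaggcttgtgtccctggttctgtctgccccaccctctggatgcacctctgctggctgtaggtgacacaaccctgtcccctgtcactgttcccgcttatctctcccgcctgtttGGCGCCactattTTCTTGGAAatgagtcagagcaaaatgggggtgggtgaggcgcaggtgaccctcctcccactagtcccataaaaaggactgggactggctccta
Hamp2: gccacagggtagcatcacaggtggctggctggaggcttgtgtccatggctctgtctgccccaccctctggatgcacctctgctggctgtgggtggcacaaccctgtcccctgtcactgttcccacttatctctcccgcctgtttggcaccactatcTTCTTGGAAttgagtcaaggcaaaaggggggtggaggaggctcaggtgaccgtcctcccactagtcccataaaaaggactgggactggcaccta
Of 247 aligned bases of these stretches, 227 (91.9%) were identical. GGCGCC was in the Hamp stretch and not in that of Hamp2, and TTCTTGGAA was in both. Among all 32851 RefSeq promoter windows, 9.59% held GGCGCC and 7.02% held TTCNNNGAA.

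The messages of 4 of the 9 genes held the iron responsive element pattern: a loop of CAGTG followed by A, C or T, shown in capitals. The loop stands on 5 base pairs of stem, with G to T pairs allowed, below which a cytosine bulges out. These 30-base windows from GENCODE M21 transcripts are shown because the iron regulatory proteins act on them after transcription, so RNA counts miss their action on translation of the ferritin and ferroportin messages and see that on the Tfrc message, which they stabilize.
Fth1, 5′ untranslated: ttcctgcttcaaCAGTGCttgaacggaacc
Ftl1, 5′ untranslated: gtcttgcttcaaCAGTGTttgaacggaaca
Slc40a1, 5′ untranslated: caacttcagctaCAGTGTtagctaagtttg
Tfrc, 3′ untranslated, the first match: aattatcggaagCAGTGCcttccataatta
Tfrc, 3′ untranslated, the second match: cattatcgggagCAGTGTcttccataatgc
Tfrc, 3′ untranslated, the third match: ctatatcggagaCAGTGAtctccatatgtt
Tfrc, 3′ untranslated, the fourth match: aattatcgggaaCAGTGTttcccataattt
Of 21901 protein-coding transcripts, the longest of each gene, 205 (0.936%) held the pattern. No match was found in the longest transcripts of Hamp, Hamp2, Tfr2, Hfe and Hmox1.

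As a check of the deletion, Xbp1 was at 194, 200.3 and 221 CPM in the fl/fl chow libraries, at 95.7 and 128 CPM in the LKO chow libraries, at 301, 295 and 242 CPM in fl/fl HFS and at 117, 97.3 and 135 CPM in LKO HFS. Every knockout library was below every control, although a count per gene also takes in exons that are not deleted. The 12 hepatocyte markers summed to 48704 to 182966 CPM in every library, and this sum was lower in both Xbp1 LKO groups (48704 to 99508 CPM) than in both Xbp1 fl/fl groups (131995 to 182966 CPM). Markers of other liver cells were low: 14 Kupffer cell and macrophage genes summed to 21.8 to 105 CPM, 10 sinusoidal endothelial genes to 26.96 to 144 CPM, 9 stellate cell genes to 8.96 to 61.2 CPM and 6 cholangiocyte genes to 3.38 to 16.3 CPM. Of the erythroid markers, the globin genes were at 0 to 0.422 CPM and Hemgn at 0 counts in all libraries, while Alas2 was at 118 to 181 CPM and Klf1 at 4.15 to 7.25 CPM. In these bulk samples, fewer cells of a type and less RNA per cell cannot be told apart. In 4 libraries, 1 of each group, the secreted acute phase genes Lcn2 and Fgl1 were highest: fl/fl chow replicate 1, LKO chow replicate 2, fl/fl HFS replicate 2 and LKO HFS replicate 3.

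The iron genes spanned a wide range of levels. Divided by transcript length, Hamp had the highest mean in all 4 groups, from 1190 to 1859 CPM per kb, and Fth1 the next, from 919 to 1064 CPM per kb. Tfr2 followed at 147 to 208 CPM per kb and Slc40a1 at 36.8 to 47.1 CPM per kb. In single libraries Hamp ran from 826 to 2409 CPM per kb and Fth1 from 843 to 1122 CPM per kb, so these neighbours overlapped, whereas Tfr2, at 135 to 238, lay below both and above Slc40a1, at 24.5 to 53.0. Hfe (12.9 to 19.2), Ftl1 (7.69 to 31.9), Hamp2 (3.32 to 36.3), Hmox1 (3.54 to 17.6) and Tfrc (2.50 to 5.25 CPM per kb) each overlapped with a neighbour, and Tfrc had the lowest mean per kb in every group. The place of Ftl1 in this order is uncertain and may be too low. Only 21.1% of the 50-base windows of its longest protein-coding transcript occur in no other gene, and genes with close copies may be undercounted.

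**Figure D1:**
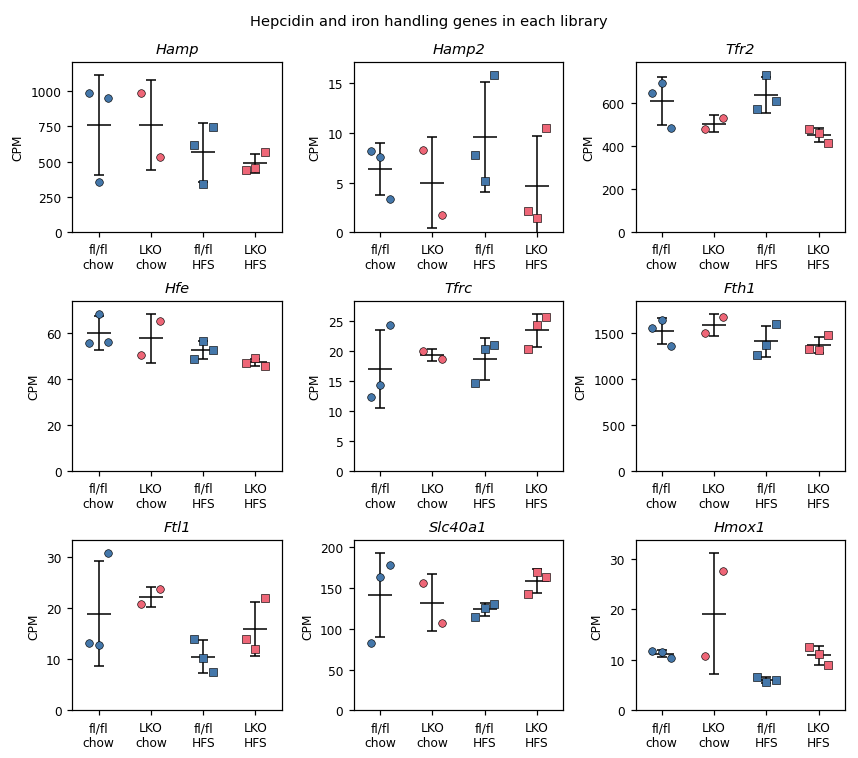
Level of the 9 iron genes in CPM (vertical axes from 0) in each library of the 4 groups on the horizontal axis; circles are chow and squares HFS libraries, blue is Xbp1 fl/fl and red Xbp1 LKO, and black bars are the group mean ± SD (n = 3, or 2 for LKO chow), cut at 0. Hamp spreads from 353 to 984 CPM within the fl/fl chow group, and Hmox1 in LKO HFS (8.93 to 12.6 CPM) lies above fl/fl HFS (5.55 to 6.67 CPM).

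None of the 9 genes passed the adjusted p threshold of 0.05 between the genotypes on chow or on the HFS diet. The background share of genes called was 4.75% on chow (632 of 13303) and 4.08% on the HFS diet (543 of 13303). When the genotype effect was averaged over both diets, 11.9% of all genes were called (1582 of 13303) and 1 of the 9, Hmox1, was higher in Xbp1 LKO hepatocytes (5.25% of all genes were called higher). Groups that did not overlap were found for none of the 9 on chow, where 31.3% of all genes had them with 3 libraries against 2, and for 3 on the HFS diet, with Slc40a1 and Hmox1 higher (13.6% of all genes were) and Tfr2 lower (12.5%). With both diets together, no member separated all LKO from all fl/fl libraries, as 7.53% of genes did. The median log2 fold change of the 9 genes was -0.00 on chow, -0.04 on the HFS diet and 0.01 averaged over diets, beside 0.00, 0.01 and 0.01 over all genes tested. The scaling bears on these values: with plain library totals in place of TMM, the median of all genes moved to 0.33 on chow and 0.27 on the HFS diet, and differences below are relative to TMM's centre. Between diets, none of the 9 was called either, where the background was 0.428% of genes in Xbp1 fl/fl hepatocytes (57) and 0.0601% in Xbp1 LKO hepatocytes (8). Diet groups that did not overlap were found in Xbp1 fl/fl hepatocytes for 1 of the 9, Hmox1, lower on the HFS diet (7.34% of all genes). In Xbp1 LKO hepatocytes they were found for Tfrc, higher (16.7%), and for Tfr2, Hfe and Fth1, lower (14.4%). For Tfr2 this was nearly a tie, with 477.55 CPM in LKO HFS and 477.60 CPM in LKO chow as the nearest values. No gene in the whole table passed the edgeR test of the interaction of genotype and diet, 0.0% of 13303, although 816 genes had an unadjusted p under 0.05 and DESeq2 called 31. The adjusted p of the 9 iron genes in that test was 0.891 to 0.986, so no genotype effect below can be said to differ between the diets.

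**Figure D2:**
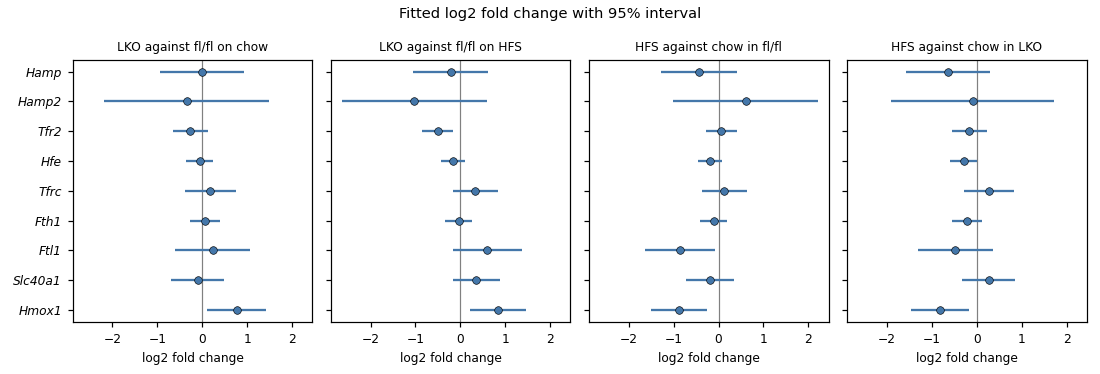
Fitted log2 fold change (points) with its 95% interval (lines) for the 9 iron genes, from edgeR's quasi-likelihood fit; each panel is one comparison, and positive values mean higher in the first-named group. The intervals are widest for Hamp2 and Hamp, and those of Hmox1 leave out 0 in all 4 panels before adjustment.

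Hamp (ENSMUSG00000050440, chr7:30942368-30944032, minus strand, GRCm38), which encodes hepcidin, was among the more abundant messages, with 6116 to 23155 counts per library. The fl/fl chow libraries held 984, 353 and 949 CPM and the LKO chow libraries 988 and 534 CPM. The fl/fl HFS libraries held 615, 339 and 749 CPM and the LKO HFS libraries 440, 458 and 566 CPM. High and low libraries stood in the same group, and every pair of groups overlapped. Group means were 762 ± 355 (SD, n = 3), 761 ± 321 (n = 2), 568 ± 209 (n = 3) and 488 ± 67.8 CPM (n = 3) in that order. The log2 fold change of Xbp1 LKO against Xbp1 fl/fl was -0.00 on chow (SE 0.43, adjusted p = 0.999) and -0.22 on the HFS diet (SE 0.38, adjusted p = 0.844). The 95% intervals of these differences were -0.95 to 0.94 and -1.06 to 0.63. HFS feeding gave -0.43 in Xbp1 fl/fl hepatocytes (interval -1.27 to 0.42, adjusted p = 0.840) and -0.64 in Xbp1 LKO hepatocytes (interval -1.57 to 0.29, adjusted p = 0.563). With the counts of Hamp and Hamp2 summed, the genotype differences were -0.01 on chow and -0.23 on the HFS diet.

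Hamp2 (ENSMUSG00000056978, chr7:30922372-30924681, minus strand), the second hepcidin gene, was far lower, with 39 to 324 counts per library. It took 0.316% to 2.10% of the counts of both genes, and Hamp had 46.7 to 316 times its count. The chow-fed libraries held 8.16, 7.57 and 3.34 CPM in Xbp1 fl/fl and 8.23 and 1.75 CPM in Xbp1 LKO. On the HFS diet they held 7.76, 5.19 and 15.9 CPM in Xbp1 fl/fl and 2.16, 1.45 and 10.5 CPM in Xbp1 LKO. The groups overlapped on both diets, and the gene varied 10.9-fold over all libraries. The genotype log2 fold change was -0.34 on chow (SE 0.84, adjusted p = 0.872) and -1.03 on the HFS diet (SE 0.74, adjusted p = 0.543). The longest transcripts of Hamp and Hamp2 were identical at 388 of 410 aligned bases (94.6%), and 60 windows of 50 bases, the read length, were shared by both genes. A part of Hamp2's small count could therefore hold reads of the far more abundant Hamp, or the reverse, and this was not tested.

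Of the 4 libraries with the highest Lcn2 and Fgl1 of their groups, Hamp was the highest of its group in 2 (984 and 566 CPM) and the lowest of its group in 2 (534 and 339 CPM). Lcn2, a siderophore-binding protein of inflammation, was at 205, 15.8 and 1.54 CPM in fl/fl chow, 3.71 and 243 in LKO chow, 3.24, 515 and 4.85 in fl/fl HFS and 10.1, 11.6 and 145 in LKO HFS. In the library with the highest Lcn2, fl/fl HFS replicate 2, Hamp was at its lowest, 339 CPM. In fl/fl chow replicate 3, with the lowest Lcn2, Hamp was at 949 CPM. Hp, the hemoglobin scavenger haptoglobin, was at 9980 and 8616 CPM in the highest Lcn2 libraries of the Xbp1 fl/fl groups, and at 2330 to 4893 CPM in the other libraries of both genotypes. In LKO chow it was at 4788 CPM in the high Lcn2 library and 2769 CPM in the other. LKO HFS replicate 3, high in Lcn2, was not high in Hp, at 2526 CPM beside 2648 and 2407 CPM. Its Stat3, at 104 CPM, was the lowest of its group, whereas fl/fl chow replicate 1, LKO chow replicate 2 and fl/fl HFS replicate 2 had the highest (224, 238 and 173 CPM). Over the 11 libraries, Pearson's r of log2 CPM with Hamp was -0.37 for Lcn2, -0.08 for Hp, -0.21 for Fgl1 and 0.32 for Hamp2, as a description over libraries that come from 4 groups. The genes closest to Hamp by the same measure were Gpatch11 (r = 0.86), Gm38190 (0.85), Mrps31 (0.84), Upf3b (0.84) and Scnm1 (0.82), and the first gene of the iron lists was Cebpa, at rank 607 with r = 0.48.

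**Figure D3:**
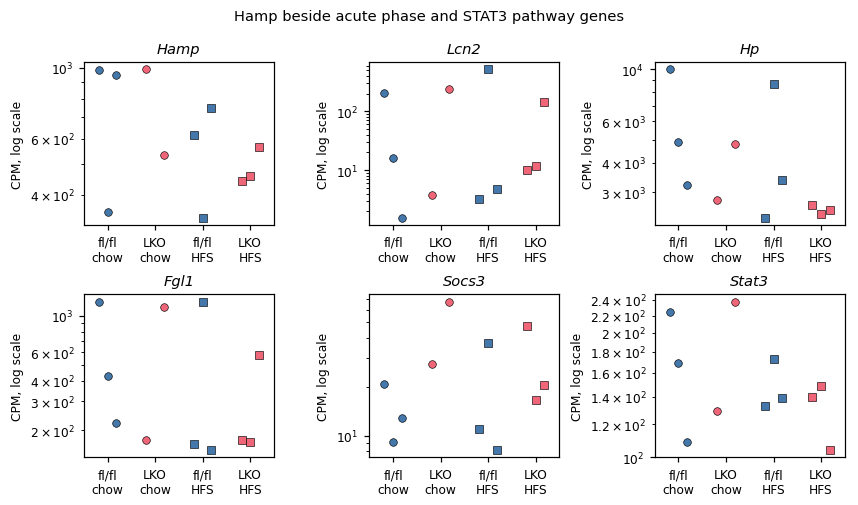
Level of Hamp, 3 acute phase genes (Lcn2, Hp, Fgl1) and 2 STAT3 pathway genes (Socs3, Stat3) in CPM on a log scale, each point a library of the group on the horizontal axis, with circles for chow, squares for HFS, blue for Xbp1 fl/fl and red for Xbp1 LKO. Lcn2 ranges from 1.54 to 515 CPM, with 1 high library in each group, where Hamp is at 984, 534, 339 and 566 CPM in the order of the groups.

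Tfr2 (ENSMUSG00000029716, chr5:137569840-137587481, plus strand) encodes transferrin receptor 2, which with HFE forms the hepatocyte's sensor of iron-loaded transferrin. It was at 649, 695 and 484 CPM in fl/fl chow, 478 and 533 CPM in LKO chow, 571, 732 and 610 CPM in fl/fl HFS and 478, 460 and 414 CPM in LKO HFS. On the HFS diet all Xbp1 LKO libraries lay below all Xbp1 fl/fl libraries, and on chow the groups overlapped. The genotype log2 fold change on the HFS diet was -0.50 (SE 0.16, interval -0.85 to -0.15, adjusted p = 0.109), on chow -0.27 (SE 0.18, adjusted p = 0.448; 0.06 with plain library totals), and averaged over diets -0.39 (SE 0.12, adjusted p = 0.0594). It missed the threshold in edgeR and passed it in DESeq2 on the HFS diet (-0.51, adjusted p = 0.0241) and averaged over diets (-0.39, adjusted p = 0.0111). Without fl/fl chow replicate 3, edgeR's averaged value was -0.46 with an adjusted p of 0.0166. The averaged difference was called in 3 of 18 alternatives, with log2 fold changes of -0.46 to -0.09 and adjusted p up to 0.539. The difference on the HFS diet was called in 1 of 19.

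Hfe, the partner of transferrin receptor 2 and the gene of the common human iron overload disease, kept within 45.9 to 68.5 CPM over all 11 libraries. Its genotype log2 fold changes were -0.06 on chow (interval -0.36 to 0.24, adjusted p = 0.870) and -0.15 on the HFS diet (interval -0.42 to 0.11, adjusted p = 0.591). All 3 LKO HFS libraries, at 47.0, 49.2 and 45.9 CPM, were below the chow-fed ones of that genotype, at 50.4 and 65.2 CPM (log2 fold change -0.29, adjusted p = 0.411).

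Tfrc, which encodes transferrin receptor 1, the general route of iron uptake, was low, at 12.2, 14.3 and 24.3 CPM in fl/fl chow and 20.0 and 18.6 CPM in LKO chow. On the HFS diet it was at 14.6, 20.4 and 20.9 CPM in Xbp1 fl/fl and 20.4, 24.2 and 25.6 CPM in Xbp1 LKO. The genotypes overlapped on both diets, with log2 fold changes of 0.18 on chow (adjusted p = 0.755) and 0.33 on the HFS diet (interval -0.17 to 0.83, adjusted p = 0.524). Averaged over diets it was 0.26 (adjusted p = 0.392), and 0.44 without fl/fl chow replicate 3 (adjusted p = 0.0366). This averaged difference was called in 2 of 18 alternatives.

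The ferritin subunits store iron in a shared protein shell. Fth1, the heavy subunit with the ferroxidase site, was the steadiest of the 9 genes: it ranged from 1260 to 1676 CPM, a 1.33-fold span over all libraries. Its means were 1523 ± 145 CPM in fl/fl chow (SD, n = 3), 1589 ± 122 in LKO chow (n = 2), 1411 ± 172 in fl/fl HFS (n = 3) and 1373 ± 88.7 in LKO HFS (n = 3). The genotype log2 fold change had an interval of -0.28 to 0.40 on chow and of -0.35 to 0.27 on the HFS diet. Ftl1, the light subunit, was listed at only 152 to 621 counts per library. Only 21.1% of the 50-base windows of its longest protein-coding transcript occur in no other gene, and 49.1% of those over all its transcripts. The gene shares windows with 15 other annotated genes, most of all the pseudogene Ftl1-ps1, and its count is uncertain for that reason. It was at 7.44 to 14.0 CPM in fl/fl HFS and 11.97 to 22.0 CPM in LKO HFS (log2 fold change 0.60, SE 0.35, adjusted p = 0.434), and on chow at 12.9 to 30.9 and 20.9 to 23.7 CPM (0.23, adjusted p = 0.799). Averaged over diets its log2 fold change was 0.42 (adjusted p = 0.361), and 0.69 without fl/fl chow replicate 3 (adjusted p = 0.0467). This averaged difference was called in 3 of 18 alternatives.

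Slc40a1 (ENSMUSG00000025993, chr1:45908068-45926523, minus strand) encodes ferroportin, the exporter that hepcidin removes. The fl/fl chow libraries held 82.5, 164 and 179 CPM and the LKO chow libraries 157 and 108 CPM. The fl/fl HFS libraries held 115, 126 and 131 CPM and the LKO HFS libraries 143, 170 and 164 CPM. The groups overlapped on chow, and on the HFS diet all Xbp1 LKO libraries were above all Xbp1 fl/fl libraries. The log2 fold change was -0.10 on chow (SE 0.27, adjusted p = 0.888) and 0.36 on the HFS diet (SE 0.24, interval -0.17 to 0.89, adjusted p = 0.519). Macrophages also express Slc40a1. The summed Kupffer cell and macrophage markers were at 42.2 to 59.8 CPM in fl/fl HFS and 59.9 to 105 CPM in LKO HFS, so the groups stood in the same order as for Slc40a1, with 59.8 and 59.9 CPM as the nearest values. Within fl/fl HFS the order was the reverse, at 59.8, 47.0 and 42.2 CPM beside Slc40a1 at 115, 126 and 131 CPM. Their part in the result was not tested. On chow the library with the most marker signal, Xbp1 fl/fl replicate 1 at 94.7 CPM, had the lowest Slc40a1.

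Hmox1 (ENSMUSG00000005413, chr8:75093621-75100589, plus strand) encodes heme oxygenase 1, the inducible enzyme that opens the heme ring and frees its iron. The fl/fl chow libraries held 11.7, 11.6 and 10.4 CPM and the LKO chow libraries 10.7 and 27.7 CPM. The fl/fl HFS libraries held 6.67, 5.55 and 5.98 CPM and the LKO HFS libraries 12.6, 11.2 and 8.93 CPM. On the HFS diet every Xbp1 LKO library was above every Xbp1 fl/fl library, and on chow the difference came from 1 of the 2 knockout libraries. Averaged over both diets, Hmox1 rose in Xbp1 LKO hepatocytes with a log2 fold change of 0.81 (SE 0.21, interval 0.36 to 1.26, adjusted p = 0.0262), a 1.75-fold difference. Within a diet it missed the threshold, at 0.77 on chow (SE 0.30, adjusted p = 0.178) and 0.84 on the HFS diet (SE 0.28, adjusted p = 0.133). HFS feeding gave -0.89 in Xbp1 fl/fl hepatocytes (SE 0.29, adjusted p = 0.336), where the groups did not overlap, and -0.81 in Xbp1 LKO hepatocytes (SE 0.30, adjusted p = 0.298).

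The averaged call for Hmox1 rested on few counts, 109 to 633 per library, and on single libraries. Without LKO chow replicate 2 it was 0.38 with an adjusted p of 0.129, the chow difference turned to -0.07 (adjusted p = 0.957) and the diet difference in Xbp1 LKO to 0.04 (adjusted p = 0.994). It also missed the threshold without fl/fl chow replicate 2 (adjusted p = 0.0505), fl/fl HFS replicate 2 (0.0561) or 3 (0.0576), and LKO HFS replicate 1 (0.0542) or 2 (0.0581), with log2 fold changes of 0.75 to 0.82. Without LKO chow replicate 2 the HFS difference was called instead, at 0.84 with an adjusted p of 0.0133, and the fall with HFS feeding in Xbp1 fl/fl hepatocytes at -0.88 with an adjusted p of 0.0460. Without LKO chow replicate 1, all 4 of the pairwise comparisons were called for Hmox1, at 1.30, 0.84, -0.89 and -1.35 for genotype on chow, genotype on the HFS diet, diet in Xbp1 fl/fl and diet in Xbp1 LKO, with adjusted p of 0.00508, 0.0120, 0.0389 and 0.0348. Macrophages of the liver also express Hmox1. Their 14 summed markers were at 94.7, 21.8 and 22.3 CPM in the fl/fl chow libraries, beside Hmox1 at 11.7, 11.6 and 10.4 CPM. In the LKO chow libraries the markers were at 25.7 and 37.0 CPM, and the second of these had the high Hmox1 level. On the HFS diet, all 3 Xbp1 LKO libraries (59.9, 64.7 and 105 CPM) were above all 3 Xbp1 fl/fl libraries (59.8, 47.0 and 42.2 CPM), as for Hmox1. The library at 105 CPM, however, had the lowest Hmox1 of its group. The part of macrophages in the Hmox1 result was not tested.

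The wider pathway was read from 8 lists of 90 genes, of which 87 were tested; Erfe, Heph and Cybrd1 were too low. Of these 87 genes, 5 passed between genotypes on chow (1 higher, 4 lower; 1.73% and 3.02% of all genes), 8 on the HFS diet (3 higher, 5 lower; 1.92% and 2.16%), 17 averaged over diets (6 higher, 11 lower; 5.25% and 6.64%), and none between diets in either genotype. These are 5.75%, 9.20% and 19.5% of the genes listed and tested, beside 4.75%, 4.08% and 11.9% of all genes. The median log2 fold change of the 87 genes was 0.01 on chow and -0.09 on the HFS diet, beside 0.00 and 0.01 over all genes.

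In the BMP and SMAD list, Tmprss6 had the smallest adjusted p on both diets. It encodes matriptase-2, a hepatocyte membrane protease that cleaves hemojuvelin and thereby holds hepcidin transcription down. It was at 660, 787 and 614 CPM in fl/fl chow, 294 and 225 CPM in LKO chow, 712, 680 and 745 CPM in fl/fl HFS and 308, 233 and 358 CPM in LKO HFS. Every knockout library was below every control library, as in 4.34% of all genes over both diets. Tmprss6 fell by 1.40 on the log2 scale on chow (SE 0.20, adjusted p = 0.00449) and by 1.25 on the HFS diet (SE 0.18, adjusted p = 0.00367), to 0.378 and 0.421 of the control level. The fall on chow had an adjusted p of 0.0654 and a log2 fold change of -1.22 without LKO chow replicate 2, and the fall on the HFS diet was called in all 19 alternative analyses.

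Of the other genes of that list, Id1 and Id3 are direct SMAD targets that encode inhibitors of basic helix-loop-helix factors. Id3 was at 31.3, 15.3 and 18.7 CPM in fl/fl chow and 53.7 and 68.2 CPM in LKO chow, and at 9.86, 19.9 and 18.5 against 29.5, 37.5 and 53.6 CPM on the HFS diet. The genotypes did not overlap on either diet, and Id3 rose by a log2 fold change of 1.49 on chow (SE 0.34, adjusted p = 0.0312) and 1.32 on the HFS diet (SE 0.32, adjusted p = 0.0416). Id1 rose on the HFS diet, from 3.81, 3.26 and 4.36 CPM to 5.46, 11.04 and 22.3 CPM (log2 fold change 1.76, SE 0.44, adjusted p = 0.0483), and on chow differed by 0.58 (adjusted p = 0.565). Smad4, the shared partner of the receptor-activated SMADs, fell by 0.36 on the HFS diet (SE 0.08, adjusted p = 0.0320), with 25.9 CPM in each Xbp1 LKO library and 32.1 to 35.0 CPM in Xbp1 fl/fl. On chow its log2 fold change was -0.32 (adjusted p = 0.0746), and 0.01 with plain library totals. Smad7, a SMAD target and inhibitor of the same route, was at 5.38 to 7.38 CPM in fl/fl HFS and 10.5 to 12.6 CPM in LKO HFS (0.81, adjusted p = 0.0998). Hjv, the co-receptor hemojuvelin, was at 68.7 to 123 CPM in all libraries, with 0.09 on chow and 0.21 on the HFS diet. In all, 2 of 19 genes tested in this list passed on chow (1 higher, 1 lower) and 4 on the HFS diet (2 higher, 2 lower), with list medians of 0.06 and 0.04.

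The calls for Id3, Id1 and Smad4 were less firm than that of Tmprss6. Id3 lost its call on chow without fl/fl chow replicate 2 or 3 or LKO chow replicate 2 (adjusted p of 0.0972, 0.0795 and 0.240), and on the HFS diet without any 1 of the fl/fl HFS libraries or LKO HFS replicate 2 or 3 (up to 0.144). Averaged over diets, Id3 was called in all 18 alternatives. Id1 lost its call without any library except fl/fl chow replicate 2 and LKO HFS replicate 1 (0.0504 to 0.163), and Smad4 without any 1 of the 6 HFS libraries (0.0738 to 0.133). With plain library totals the Smad4 difference on the HFS diet was -0.11 and not called. The summed sinusoidal endothelial markers, cells that express Id1, Id3 and the ligands Bmp2 and Bmp6, were at 44.0 to 105 CPM in fl/fl chow and 26.96 to 35.6 CPM in LKO chow, and at 88.0 to 144 against 69.7 to 110 CPM on the HFS diet. Their sum was thus lower on chow where Id3 was higher, and overlapped on the HFS diet. Their part in the result was not tested.

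**Figure D4:**
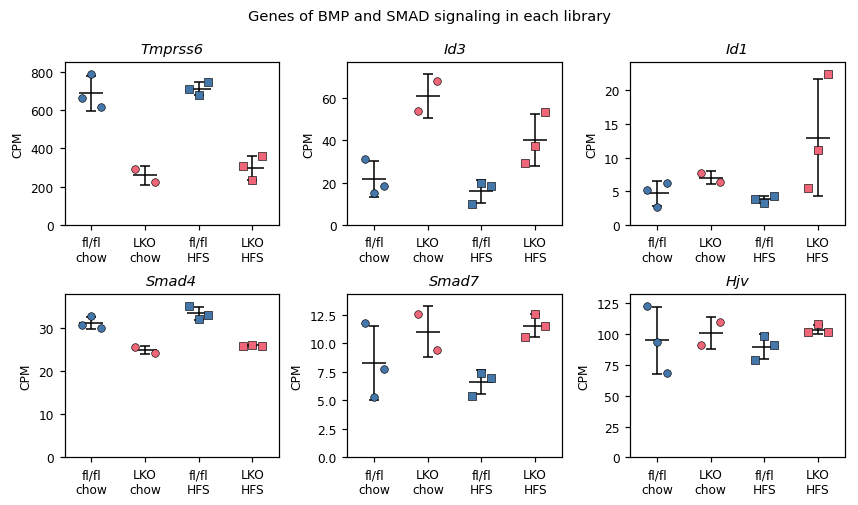
Level of 6 genes of the BMP and SMAD route to hepcidin in CPM (vertical axes from 0), one point per library, in the 4 groups on the horizontal axis; circles are chow, squares HFS, blue Xbp1 fl/fl, red Xbp1 LKO, and black bars mean ± SD (n = 3, or 2 for LKO chow). Tmprss6 is at 614 to 787 CPM in all Xbp1 fl/fl libraries and at 225 to 358 CPM in all Xbp1 LKO libraries, while Id3 is higher in Xbp1 LKO on both diets.

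In the list of interleukin 6, STAT3 and C/EBP signaling, none of 9 genes passed in any comparison with all libraries, the filter and TMM in edgeR. Some passed under other settings. The smallest unadjusted p on chow were those of Jak2, the receptor kinase (-0.29, adjusted p = 0.154), and Socs3, the feedback inhibitor induced by STAT3 (1.72, adjusted p = 0.162), and on the HFS diet those of Il6ra, the receptor's ligand-binding chain (-0.59, adjusted p = 0.211), and Cebpb (-0.51, adjusted p = 0.283). Without LKO HFS replicate 1, Il6ra was called on the HFS diet at -0.97 (adjusted p = 0.00855) and averaged over diets at -0.49 (adjusted p = 0.0170). With all libraries and no filter it was called on the HFS diet (adjusted p = 0.00404), so in 2 of 19 alternatives. Cebpb was called in 2 of 19 on chow and 1 of 19 on the HFS diet, and Jak2 in 1 of 19 on the HFS diet. With a library left out, Socs3 on chow ran from 0.94 without LKO chow replicate 2 to 2.23 without LKO chow replicate 1 and was not called (adjusted p of 0.0796 to 0.772). It was called on chow in 2 of 19 alternatives, with library totals (adjusted p = 0.0385) and with no filter. On the HFS diet it was called in 1 of 19, with no filter (adjusted p = 0.0271). Averaged over diets it was called in 3 of 18: with library totals (adjusted p = 0.0195), with no filter, and without fl/fl HFS replicate 2 (1.64, adjusted p = 0.0174). Socs3 was at 9.19 to 20.9 CPM in fl/fl chow and at 27.6 and 67.2 CPM in LKO chow, the higher value in the library that was also high in Lcn2.

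Among the plasma carriers of iron and heme, Lrp1, the receptor that clears heme bound to hemopexin, was at 1193, 1526 and 730 CPM in fl/fl chow and 546 and 635 CPM in LKO chow. On the HFS diet it was at 1365, 1513 and 1508 CPM in Xbp1 fl/fl and 728, 587 and 585 CPM in Xbp1 LKO. Lrp1 fell by 1.21 on the log2 scale on the HFS diet (SE 0.23, adjusted p = 0.0140), and on chow the log2 fold change was -0.96 (adjusted p = 0.0581; -1.20 and 0.00952 without fl/fl chow replicate 3). The chow difference was called in 3 of 19 alternatives. The HFS call was lost without fl/fl HFS replicate 3 (adjusted p = 0.0525) or LKO HFS replicate 2 (0.0769) or 3 (0.0614). Trf, the plasma iron carrier transferrin, was at 874 to 1265 CPM in fl/fl chow, 705 and 675 CPM in LKO chow, 939 to 1256 CPM in fl/fl HFS and 699 to 826 CPM in LKO HFS, all knockouts below all controls. Its log2 fold change was -0.70 on chow (adjusted p = 0.0670; 0.0253 without fl/fl chow replicate 3) and -0.52 on the HFS diet (adjusted p = 0.133), and it fell by 0.61 averaged over diets (SE 0.13, adjusted p = 0.0111; 0.0502 without LKO chow replicate 2). The Trf difference on chow was called in 3 of 19 alternatives. Averaged over diets, 3 of 8 genes of the list fell. The third, Ambp, which gives the heme-binding protein α1-microglobulin, is named after its values were seen (-0.63, adjusted p = 0.0256). Ambp was called in 11 of 18 alternatives and lost its call without fl/fl chow replicate 2, either LKO chow library or LKO HFS replicate 1 or 2 (adjusted p of 0.0501 to 0.0855). Transferrin and the Ambp product are secreted by hepatocytes, and the summed hepatocyte markers, which are largely such genes, were lower in both Xbp1 LKO groups as given above; their part in this was not tested.

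Of 8 genes for iron uptake and reduction, Slc39a8, a zinc and iron importer, fell on chow from 23.0 to 28.1 CPM in Xbp1 fl/fl to 19.6 and 17.9 CPM in Xbp1 LKO (log2 fold change -0.47, SE 0.11, adjusted p = 0.0362), a call that was lost without any of 8 libraries: fl/fl chow replicates 2 and 3, both LKO chow libraries, the 3 fl/fl HFS libraries and LKO HFS replicate 2 (adjusted p of 0.0525 to 0.304). With plain library totals it was -0.15 and not called. Steap2, a metalloreductase, was at 6.99 to 9.10 and 5.19 to 11.05 CPM in Xbp1 fl/fl on the respective diets and at 2.40 to 4.22 CPM in all Xbp1 LKO libraries. It missed the threshold on each diet (adjusted p of 0.0527 on chow and 0.0644 on the HFS diet) and fell by 1.15 averaged over diets (adjusted p = 0.00528), which held in all 18 alternatives. Mcoln1, a lysosomal iron channel, differed by -0.32 on the HFS diet (adjusted p = 0.130).

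Of 8 genes for iron sensing in the cell and ferritin turnover, Pcbp2, an RNA-binding protein that also hands iron to ferritin, fell on both diets. It was at 116, 128 and 120 CPM in fl/fl chow and 91.6 and 83.9 CPM in LKO chow, and at 117, 124 and 127 against 87.3, 81.6 and 82.8 CPM on the HFS diet. The groups did not overlap, with log2 fold changes of -0.46 on chow (SE 0.10, adjusted p = 0.0293) and -0.55 on the HFS diet (SE 0.09, adjusted p = 0.00834). Without fl/fl chow replicate 2, LKO chow replicate 1 or LKO chow replicate 2 the chow call was lost (adjusted p of 0.0871, 0.05004 and 0.248), and without LKO HFS replicate 2 the HFS call had an adjusted p of 0.0503. The averaged fall of 0.51 (adjusted p = 0.000968) was called in all 18 alternatives, whereas with plain library totals the chow difference was -0.14 and not called.

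In heme breakdown and transport, 12 genes were tested. Blvra, the biliverdin reductase that turns the product of heme oxygenase into bilirubin, was at 14.1, 14.5 and 13.2 CPM in fl/fl chow and 6.14 and 5.37 CPM in LKO chow, and at 14.1, 15.2 and 14.0 against 6.27, 6.99 and 8.36 CPM on the HFS diet. It fell by 1.28 on the log2 scale on chow (SE 0.15, adjusted p = 0.00254) and by 1.00 on the HFS diet (SE 0.13, adjusted p = 0.00276), and both falls were called in all 19 alternatives. Nfe2l2, which encodes NRF2, an activator of Hmox1, rose on the HFS diet from 73.1, 66.0 and 72.9 CPM to 105, 115 and 100.4 CPM (log2 fold change 0.59, SE 0.12, adjusted p = 0.0191), and on chow differed by 0.16 (adjusted p = 0.575). The HFS call was lost without any 1 fl/fl HFS library or LKO HFS replicate 2 (adjusted p of 0.0620 to 0.0914). Averaged over diets, Flvcr2 (0.71, adjusted p = 0.0396) and Slc46a1 (-0.53, adjusted p = 0.00985) passed as well, so 2 genes of this list were higher and 2 lower. Both encode membrane carriers that were placed in this list, and they are named after their values were seen. Heme transport itself was not measured. Flvcr2 was called in 7 of 18 alternatives and lost its call without any library except fl/fl chow replicate 1 and fl/fl HFS replicate 2 (adjusted p of 0.0548 to 0.0969). Slc46a1 was called in 16 of 18 and lost its call without LKO chow replicate 2 (0.0592), and the averaged call of Nfe2l2 was lost without LKO chow replicate 2 (0.0851) or LKO HFS replicate 2 (0.0504).

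**Figure D5:**
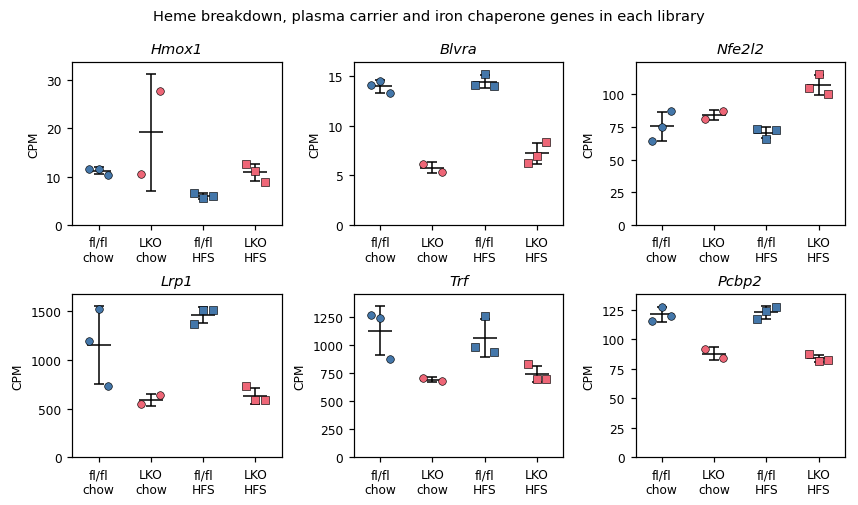
Level of Hmox1, Blvra, Nfe2l2, Lrp1, Trf and Pcbp2 in CPM (vertical axes from 0), one point per library, in the 4 groups on the horizontal axis; circles are chow, squares HFS, blue Xbp1 fl/fl, red Xbp1 LKO, and black bars mean ± SD (n = 3, or 2 for LKO chow). Blvra is at 13.2 to 15.2 CPM in Xbp1 fl/fl and 5.37 to 8.36 CPM in Xbp1 LKO, and Nfe2l2 is at 100.4 to 115 CPM in LKO HFS.

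None of the 8 heme synthesis genes passed on either diet. Cpox (0.38 on chow and 0.36 on the HFS diet, adjusted p of 0.216 and 0.225) and Fech, which inserts iron into the porphyrin ring (-0.33 and -0.26, adjusted p of 0.221 and 0.304), had the smallest unadjusted p; Cpox passed averaged over diets (0.37, adjusted p = 0.0467) and in 7 of 18 alternatives, with the call lost without any library except LKO chow replicate 1 and fl/fl HFS replicate 3 (0.0511 to 0.218). None of the 15 genes of mitochondrial iron and iron-sulfur cluster assembly passed on either diet. The smallest unadjusted p on chow were those of Isca2 (-0.40, adjusted p = 0.0937) and Hspa9 (0.51, adjusted p = 0.0974), and on the HFS diet Cisd1 was at -0.31 (adjusted p = 0.212). Averaged over diets, Isca2 was lower (-0.32, adjusted p = 0.0267) and Hspa9, a mitochondrial chaperone, higher (0.42, adjusted p = 0.0285). They were called in 8 and 11 of 18 alternatives. Over these, Isca2 ran from -0.37 to -0.03, with adjusted p up to 0.823. Isca2 lost its call without fl/fl chow replicate 1, LKO chow replicate 2, fl/fl HFS replicate 2 or 3 or LKO HFS replicate 1 or 2 (0.0554 to 0.133), and Hspa9 without fl/fl chow replicate 1 or 2, LKO chow replicate 2, any fl/fl HFS library or LKO HFS replicate 3 (0.0512 to 0.133).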

How the data were processed

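Hepatocyte RNA was read as 50 bp single-end sequence. The authors deposited unnormalized, whole-number counts for each Ensembl gene of each library. The sources differ on how these were made: the submitters' processing notes name cutadapt 1.13, STAR, HTSeq 0.6.1p1, DESeq2 and mm10, whereas the paper's methods name kallisto, tximport and DESeq2; the labels name a total RNA kit and the paper a stranded mRNA kit. Of 1749 genes with no 50-base window of their own, 94.9% had no count in any library, against 47.9% of 25454 genes with all windows their own, so genes with close copies may be undercounted. Of 54232 identifiers, 54165 were found in GENCODE M21 (GRCm38), where Hjv is called Hfe2. Totals were 19191032 to 23888401 counts. Within a group, libraries differed by a chi-square of 25.4 to 91.5 per degree of freedom, far above sampling noise, so no 2 were counted as 1 sample. Each chow library is 1 mouse and each HFS library a pool of 2, per a figure legend of the study. The p-values measure the spread between these libraries, fitted over single-mouse and pooled libraries together. Diet and pooling cannot be told apart, also where the overlap of groups differs between the diets. The same legend gives an n of 3 in each chow group, and 2 LKO chow libraries were analysed here. The second of these is numbered 2 in its label and 3 in its file, so replicate blocks were run with both numberings.

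Genes were filtered (filterByExpr, minimum count 10), scaled by TMM, and fitted in edgeR 4.0.16 under R 4.3.3 with 1 coefficient per group over the 11 libraries (glmQLFTest). SEs are the log2 fold change over the square root of F, and 95% intervals use the degrees of freedom of the fit. The call threshold was an adjusted p of 0.05. The 9 genes and the lists were chosen with earlier results of these data known. Genes named are the 9, Xbp1, per list up to 4 genes passing in each genotype comparison or otherwise the 2 with the smallest unadjusted p, and the 5 most correlated with Hamp (log2 CPM, prior count 2). Lcn2, Hp, Fgl1, Smad7, Hjv, Stat3, Ambp, Flvcr2 and Slc46a1 were added after their values were seen. Some values that these rules would name are not reported here. Alternatives were DESeq2 1.42.0, RLE factors, library totals, no filter, a minimum count of 50, only the groups compared, replicate blocks, each library left out, and Hamp plus Hamp2. On simulated counts for the chow comparison (13056 genes), edgeR recovered 61 of 102 genes changed 2-fold and 95 of 98 changed 4-fold, with 8 false calls. The simulation gave every gene the same dispersion, the median of the fitted trend, and left all other genes unchanged between the groups. It therefore cannot tell how often genes with a wider spread would be recovered. Sequences came from GENCODE M21 transcripts and RefSeq's GRCm38.p6 promoter table.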

Additional observations from a re-analysis of the deposited data

How the results depend on the processing

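Hamp, Hfe and Slc40a1 were called in no comparison under any alternative. Fth1 and Tfrc were called in no pairwise comparison, and under some alternatives only averaged over diets. Of the 9 genes' values other than with a library left out, 400 kept their direction or stayed uncalled, 18 gained a call and 2 lost one. In the order genotype on chow, genotype on HFS, diet in fl/fl, diet in LKO, interaction and genotype averaged over diets, the calls over all genes were as follows where they moved by over 1.5 times. DESeq2 called 1115, 987, 175, 210 and 31 in the first 5. Library totals called 2999 and 1483 for genotype, and 5790 averaged, where 89.5%, 86.9% and 91.4% of calls were higher, against 36.4%, 47.1% and 44.2% with TMM. With no filter 1507, 1438, 499, 722 and 269 were called in the first 5. Only the groups compared gave 233 for genotype on chow and 0 for diet in LKO. Of the 9 genes, DESeq2 called 1 on HFS (Tfr2) and 2 averaged (Hmox1, Tfr2). Library totals called 1 on chow and 1 on HFS (both Hmox1), and 4 averaged (Fth1, Ftl1, Hmox1, Tfrc), of which, relative to the shift of all genes, Tfrc was at 0.25, Fth1 at 0.00 and Ftl1 at 0.40. With no filter the counts were 1, 3, 2, 1 and, averaged, 3, and only the groups compared gave 1 on HFS (Hmox1). Jak2 averaged over diets went from -0.06 to 0.23 with library totals (adjusted p = 0.0316). The cause of these moves was not tested beyond the shift of all genes under library totals. Leaving out 1 library gave 69 to 762, 184 to 662, 6 to 59, 0 to 36, 0 to 0 and 846 to 1735 calls over all genes, and 0 to 1, 0 to 1, 0 to 1, 0 to 1, 0 to 0 and 0 to 4 among the 9. Whether equal replicate numbers mark pairs was not settled. Over 15 pairs of libraries with equal numbers, deviations from the group means correlated at -0.20 to 0.23, and at -0.20 to 0.25 with the other numbering. Libraries with unlike numbers were not correlated, so there is no reference for these values. With a replicate block, diet in LKO gave 19 calls (53 with the other numbering), and the averaged fit called Tfr2 (adjusted p = 0.0408) and not Hmox1 (0.0631), and none of the 9 (0) with the other numbering. Counts of 39 to 633 reads limit Hamp2, Ftl1 and Hmox1, and 2 libraries limit LKO chow.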
